A study of Homo sapiens with 8 samples.

Results

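The platelet-derived growth factor (PDGF) family of ligand and receptor genes was examined in human oligodendrocyte progenitor cells (OPCs) grown on 3 coating materials. The family was taken as the 4 ligand genes PDGFA, PDGFB, PDGFC and PDGFD and the 2 receptor genes PDGFRA and PDGFRB, chosen by name. These were 6 of the 58217 gene models with a matched transcript, and all 6 were among the 18201 genes that passed the filter on low counts.

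The OPCs were derived from the established cell line H9, which consists of human embryonic stem cells, and carried no SOX10 transgene. They were kept for 2 days in OPC medium on Matrigel, a basement membrane extract of a mouse tumour, on VN, which is recombinant vitronectin, or on VNP2, an immobilised adhesive protein that carries a peptide derived from vitronectin. The medium was shared by all groups and, as described, held retinoic acid, a Smoothened agonist, insulin and basic FGF, with no PDGF among its listed components. Growth factors in the coatings themselves were not described. Polyadenylated RNA was sequenced as stranded libraries, and 8 libraries were analysed: replicates 2 and 3 from Matrigel, and replicates 1 to 3 each from VN and VNP2. All came from 1 cell line, and the labels do not state whether the replicates were separate cultures, so the p-values measure the spread between these libraries only, which may be technical.

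PDGF ligands are secreted dimers. PDGF-A and PDGF-B are processed inside the cell by furin-type proteases, whereas PDGF-C and PDGF-D leave the cell as latent proteins whose CUB domain is cut off outside it, PDGF-C mainly by tissue plasminogen activator and PDGF-D by urokinase. PDGFRα binds the A, B and C chains and PDGFRβ binds the B and D chains, and both are tyrosine kinases that recruit PI3K, PLCγ, Src kinases and the Ras-MAPK cascade. In the developing nervous system PDGFRα marks OPCs and PDGF-A drives their division, while PDGF-B from endothelium attracts pericytes that carry PDGFRβ.

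Each library held between 37997896 and 39429453 estimated counts, so depth was nearly even. VN replicate 1 stood apart from the other VN libraries: the median chi-square of its counts per gene was 2.35 and 2.75 against VN replicates 2 and 3, which gave 0.781 between themselves, while sampling alone gives 0.455. Of the 8 OPC markers, OLIG1, OLIG2, NKX2-2, CSPG4, PTPRZ1 and SOX8 were measurable, whereas SOX10 and GPR17 held 20 and 12 counts over all 8 libraries together. Genes used as markers of other cell classes were also detected, with summed TPM of 527 to 641 for 12 mesenchymal markers, 209 to 652 for 8 pericyte and smooth muscle markers, 12.7 to 18.3 for 8 endothelial markers and 45.7 to 70.6 for 6 neural crest markers. PECAM1, MYH11 and FOXD3, which define endothelial, smooth muscle and neural crest cells, held 36, 18.0 and 28 counts over all libraries, and the presence of these cells was not tested. TPM is Salmon's transcript abundance after division by length. In bulk RNA, fewer cells of a type and less RNA per cell cannot be told apart.

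On the per-length scale, TPM was summed over all transcript models of a gene. PDGFC was then the highest of the 6 genes in every library and PDGFA the lowest. PDGFC lay at 33.9 to 48.0 TPM, PDGFD at 8.79 to 17.6 TPM, PDGFRB at 5.67 to 8.39 TPM, PDGFRA at 3.67 to 4.98 TPM, PDGFB at 1.54 to 8.52 TPM and PDGFA at 0.778 to 1.23 TPM. In all VN and VNP2 libraries that was also the order, and no neighbours in it overlapped within a substrate. On Matrigel PDGFB, at 6.03 and 8.52 TPM, was above PDGFRA in both libraries, and its range overlapped that of PDGFRB, which held 7.56 and 6.16 TPM. The order depended on the models summed. With only the transcript of each gene with the most counts, chosen after seeing the data, PDGFRA was above PDGFRB in VN replicate 3 (4.63 against 4.52 TPM). PDGFB, at 6.03 and 6.12 TPM, was then above PDGFRB, at 4.68 and 5.28 TPM, in both Matrigel libraries.

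**Figure D1:**
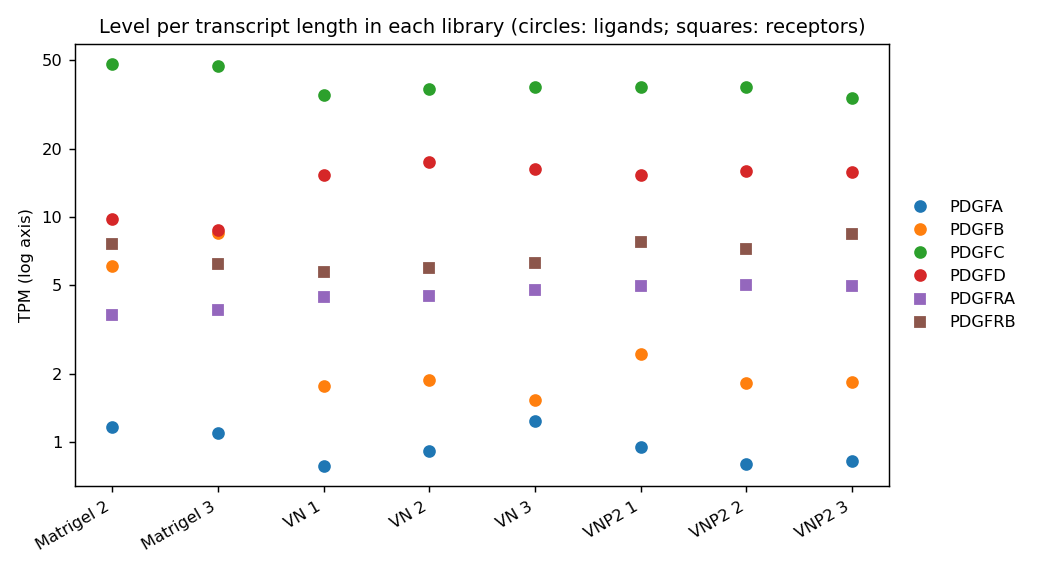
TPM of the 6 genes in each of the 8 libraries on a log axis, with circles for ligands and squares for receptors. With all its transcript models summed, PDGFC stays on top at 33.9 to 48.0 TPM. PDGFB falls from 6.03 and 8.52 TPM on Matrigel to below both receptors on VN and VNP2.

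The summed TPM of the 4 ligands was 65.3 ± 0.512 (SD, n = 2) on Matrigel, 55.8 ± 2.52 (n = 3) on VN and 55.3 ± 2.57 (n = 3) on VNP2. PDGFC made up 72.9 ± 1.33% of it on Matrigel, 65.7 ± 1.03% on VN and 66.3 ± 1.34% on VNP2. The share of PDGFD went from 14.2 ± 1.19% on Matrigel to 29.5 ± 1.03% on VN and 28.5 ± 1.57% on VNP2, while that of PDGFB went from 11.1 ± 2.61% to 3.10 ± 0.360% and 3.69 ± 0.569%. For PDGFB, PDGFC and PDGFD alike, the 2 Matrigel libraries lay outside the range of the other 6, which overlapped each other. These shares are given as values, with no test of their own. Of the PDGFC TPM, 59.4 to 72.6% per library belongs to PDGFC-201, a model described below that does not encode the full protein. The sum and the shares are therefore not those of the coding models.

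Of the 6 genes, 5 changed across the 3 substrates at an adjusted p under 0.05, against 19.3% of all genes tested, and PDGFA did not. PDGFRA lost this call without Matrigel replicate 2 or 3 (adjusted p = 0.0855 and 0.0573, edgeR), and PDGFRB lost it without VN replicate 2 or VNP2 replicate 3 (0.0636 and 0.0583). On VN against Matrigel, 3 of the 6 were called, with PDGFD higher and PDGFB and PDGFC lower, against 15.3% of all genes (5.66% higher and 9.6% lower). On VNP2 against Matrigel, 4 of the 6 were called, with PDGFD and PDGFRA higher and PDGFB and PDGFC lower, against 16.6% of all genes (7.44% higher and 9.13% lower). On VNP2 against VN, PDGFRB alone was called, higher on VNP2, against 5.1% of all genes (3.09% higher and 2.01% lower). Both comparisons with Matrigel use the same 2 Matrigel libraries. The median log2 fold change of the 6 genes was -0.30, -0.17 and 0.079 in these comparisons, beside 0.0044, 0.0024 and 0.00073 over all genes.

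**Figure D2:**
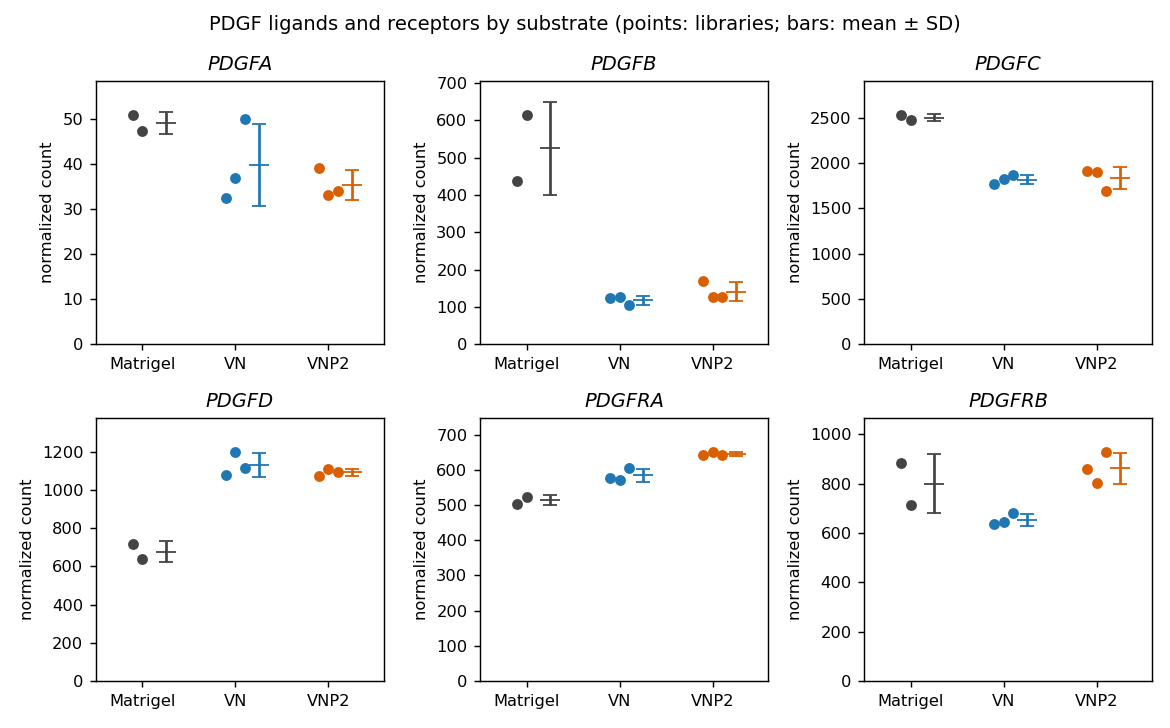
Normalized counts of the 6 genes by substrate, with a point per library and the mean ± SD beside the points. The Matrigel libraries stand above all others for PDGFB and PDGFC and below all others for PDGFD and PDGFRA. Over all genes, libraries did not overlap for 44.4% on VN against Matrigel and 48.1% on VNP2 against Matrigel.

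**Figure D3:**
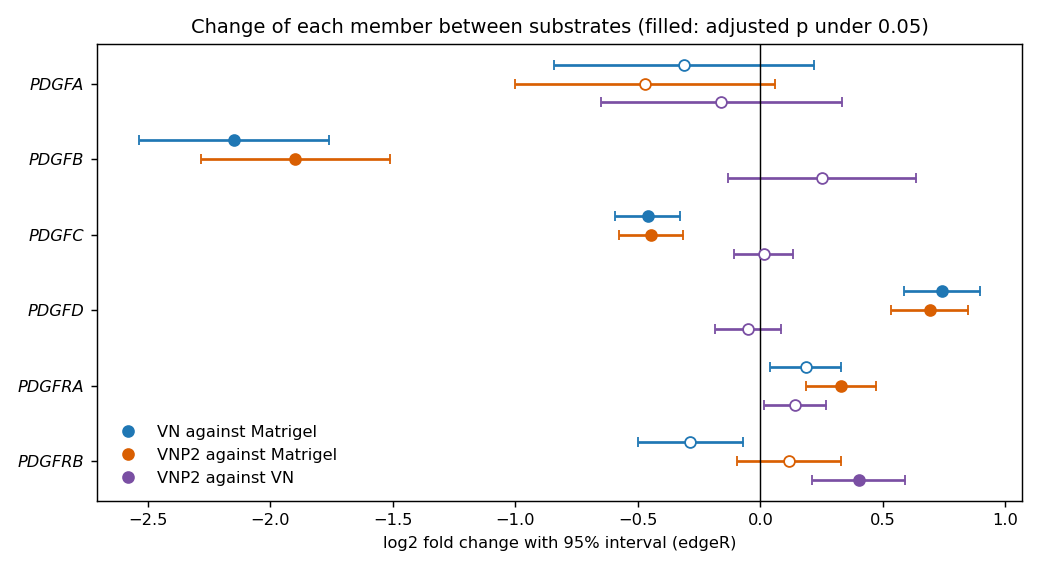
Log2 fold changes of the 6 genes with their 95% intervals in the 3 comparisons, with filled points where the adjusted p was under 0.05. PDGFB moved furthest, by -2.15 on VN and -1.90 on VNP2 against Matrigel, and the intervals of PDGFB, PDGFC, PDGFD and PDGFA for VNP2 against VN all include 0.

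PDGFB, the ligand that binds both receptors, moved furthest of the 6. It lies at chr22:39223359-39244751 on the minus strand (GRCh38). Its normalized counts, which are adjusted for library size and transcript length, were 437 and 613 on Matrigel, with 123, 127 and 104 on VN and 170, 126 and 126 on VNP2. Every Matrigel library was above every library on VN and VNP2, and the latter groups overlapped.

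The mean of PDGFB, with the SD over the 2 Matrigel, 3 VN or 3 VNP2 libraries as for all means below, was 525 ± 124 on Matrigel, 118 ± 12.4 on VN and 141 ± 25.5 on VNP2. It was 4.43-fold lower on VN (log2 fold change -2.15, SE 0.174, adjusted p = 2.31e-05 by edgeR's quasi-likelihood test with Benjamini-Hochberg adjustment) and 3.72-fold lower on VNP2 (-1.90, SE 0.174, adjusted p = 3.79e-05 by the same test). Between VNP2 and VN the log2 difference was 0.25, with a 95% interval of -0.13 to 0.64 and an adjusted p of 0.470 from edgeR.

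The Matrigel libraries of PDGFB differed in the transcript models to which the reads were assigned. These models differ in their first coding exon. The model PDGFB-201 encodes 241 residues and PDGFB-202 encodes 226. The starts of their coding sequences are shown because the capitals, which mark the bases private to each model, are what separates them, and the lower-case bases are shared. The capitals of PDGFB-201 lie at chr22:39243901-39243963 and those of PDGFB-202 at chr22:39240855-39240872 (GENCODE v29, GRCh38, minus strand, 5′ to 3′).
PDGFB-201: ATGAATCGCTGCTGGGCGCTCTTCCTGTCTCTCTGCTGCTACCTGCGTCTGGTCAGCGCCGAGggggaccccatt
PDGFB-202: ATGTTTATCATGGGCCTCggggaccccatt

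PDGFB-201 held 94.5% of all counts of the gene. PDGFB-202 was listed at 0 in Matrigel replicate 2 and in all 3 VN libraries. It was assigned 59.8 counts in Matrigel replicate 3, or 11.1% of the gene, and 11.7, 9.19 and 7.51% of the gene in VNP2 replicates 1 to 3. The model is much shorter in the files, at 1125 bases against 3728, so counts placed in it raise the length-adjusted value.

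With PDGFB-201 alone, an alternative chosen after seeing the data, the normalized counts of PDGFB were 481 and 485 on Matrigel, with 135, 140 and 114 on VN and 133, 105 and 111 on VNP2. The Matrigel libraries then nearly coincided, and the log2 fold changes were -1.89 on VN and -2.05 on VNP2. The small difference between VNP2 and VN changed sign to -0.16, with an adjusted p of 0.541 from edgeR.

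Endothelial cells are a known source of PDGFB, and 2 of their 7 tested markers were called lower off Matrigel. Over all genes, 9.6% were called lower on VN and 9.13% on VNP2. CLDN5, EMCN, TIE1, ESAM and ERG were not called against Matrigel, and the list medians were -0.35 and -0.46 on the log2 scale. TEK, the angiopoietin receptor, had normalized counts of 327 ± 39.5 on Matrigel, 164 ± 22.9 on VN and 127 ± 17.8 on VNP2. CDH5, VE-cadherin, had 45.4 ± 11.7, 12.0 ± 2.23 and 14.8 ± 5.63, and both were called lower in both comparisons with Matrigel. PECAM1, a defining endothelial marker, held 36 counts over all libraries, and the summed TPM of the list was 13.4 to 14.8 on Matrigel, against 12.7 to 18.3 on VN and 13.7 to 14.5 on VNP2. The part of these cells in the PDGFB values was not tested.

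PDGFC, the ligand with the highest TPM over all its models, was lower on VN and VNP2. It lies at chr4:156760454-156971394 on the minus strand. Normalized counts were 2524 and 2470 on Matrigel, with 1763, 1818 and 1861 on VN and 1912, 1900 and 1687 on VNP2. Both Matrigel libraries were above all others, and VN and VNP2 overlapped.

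The fall of PDGFC was 1.38-fold on VN (log2 fold change -0.46, SE 0.0593, adjusted p = 0.000558, edgeR) and 1.36-fold on VNP2 (-0.45, SE 0.0592, adjusted p = 0.000497, edgeR). The difference between VNP2 and VN was 0.014, with a 95% interval of -0.11 to 0.13 on the log2 scale. The gene carried 1647 to 2488 estimated counts per library.

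Most PDGFC counts went to a model that does not encode the full protein. PDGFC-201 is annotated as a target of nonsense-mediated decay, the pathway that degrades messages with an early stop. It took 67.1 to 79.2% of the counts of the gene per library and 73.4% in all, and its open reading frame ends after 50 residues. PDGFC-203, which encodes the protein of 345 residues, took 21.6%, and PDGFC-202, with 282 residues, took 3.95%. In TPM, PDGFC-201 held 59.4 to 72.6% of the gene, so the rank of PDGFC is not a rank of its coding models. PDGFC-203 lay at 3.87 to 7.14 TPM and PDGFC-202 at 3.26 to 6.41 TPM. Each alone was below PDGFD, which lay at 8.79 to 17.6 TPM summed over all its models. On Matrigel, PDGFC-203 held 7.14 and 6.92 TPM and PDGFC-202 held 5.68 and 5.50 TPM. There PDGFD held 9.79 and 8.79 TPM, below the sum of PDGFC-203 and PDGFC-202 in both libraries. In every VN and VNP2 library that sum was below PDGFD.

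The early stop lies in an extra exon of 61 bases at chr4:156861429-156861489, which the coding models lack. The bases below are shown because they hold it. Capitals, at chr4:156861455-156861489, mark the bases of that exon up to and including the stop codon, and lower case marks the end of the exon before it.
PDGFC-201: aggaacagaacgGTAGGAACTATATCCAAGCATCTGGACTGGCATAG

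The share of PDGFC-201 was 72.6 ± 1.22% of the counts of PDGFC on Matrigel, 74.1 ± 6.28% on VN and 73.1 ± 2.29% on VNP2, so the substrates overlapped. The models share most of their bases, and the share is an estimate by Salmon and not a count of reads across that exon. With PDGFC-201 alone, also after seeing the data, the log2 fold changes were -0.48 on VN and -0.43 on VNP2 against Matrigel, and both were still called. The coding models were not tested alone. PDGFC-203 held 574 and 555 estimated counts, not normalized, on Matrigel, with 415, 335 and 308 on VN and 476, 376 and 407 on VNP2. PDGFC-202 held 93.9 and 88.5 on Matrigel, with 101, 86.8 and 51.1 on VN and 75.5, 80.0 and 51.8 on VNP2, so Matrigel overlapped VN.

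PDGFD, the ligand of PDGFRβ, moved the other way. It lies at chr11:103907186-104164379 on the minus strand. Normalized counts were 715 and 638 on Matrigel, with 1079, 1199 and 1115 on VN and 1075, 1110 and 1093 on VNP2. All 6 libraries on VN and VNP2 were above both Matrigel libraries and overlapped each other.

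PDGFD rose 1.67-fold on VN (log2 fold change 0.74, SE 0.0706, adjusted p = 7.28e-05, edgeR) and 1.61-fold on VNP2 (0.69, SE 0.0707, adjusted p = 7.91e-05, edgeR). VNP2 and VN differed by -0.050 on the log2 scale, with a 95% interval of -0.18 to 0.084. PDGFB and PDGFD, both ligands of PDGFRβ, thus moved in opposite directions on VN and on VNP2.

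The 2 full models of PDGFD differ by 6 residues. PDGFD-202, with 370 residues, took 88.2% of the counts, between 84.9 and 91.8% per library. PDGFD-201, with 364 residues, took the remaining 11.8%. Capitals mark the bases that PDGFD-202 has and PDGFD-201 lacks, at chr11:104000238-104000255.
PDGFD-202: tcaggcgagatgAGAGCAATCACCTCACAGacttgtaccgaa
PDGFD-201: tcaggcgagatgacttgtaccgaa

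The share of PDGFD-202 was 87.9 ± 0.376% on Matrigel, 88.1 ± 3.50% on VN and 88.3 ± 2.67% on VNP2. The substrates overlapped. The opposite-strand gene DDI1 shares 193 exon bases with PDGFD and was listed at 0 in all libraries.

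**Figure D4:**
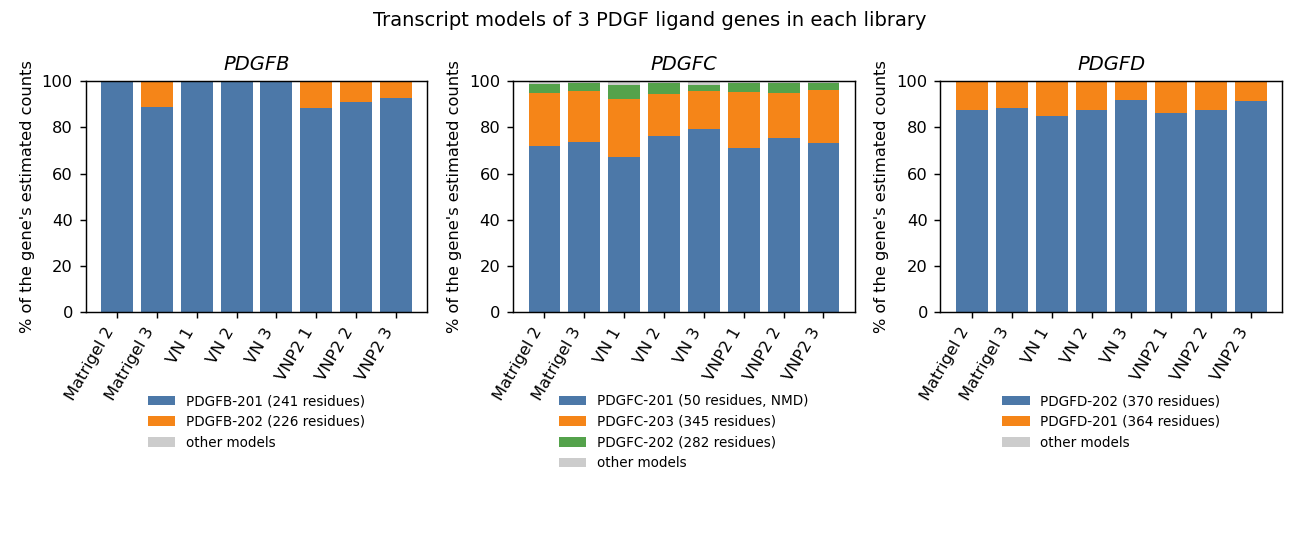
Share of the estimated counts of PDGFB, PDGFC and PDGFD assigned to each transcript model, per library. The model with the early stop holds 67.1 to 79.2% of PDGFC, PDGFD-202 holds 84.9 to 91.8% of PDGFD, and PDGFB-202 appears in Matrigel replicate 3 and the 3 VNP2 libraries.

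PDGFA, the classical mitogen of OPCs, was the lowest member. It lies at chr7:497258-520296 on the minus strand. Normalized counts were 50.8 and 47.3 on Matrigel, with 32.5, 37.0 and 50.1 on VN and 39.1, 33.0 and 34.0 on VNP2. Matrigel overlapped VN through VN replicate 3 and was above all VNP2 libraries.

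No PDGFA difference passed the test. The log2 fold change was -0.31 on VN, with a 95% interval of -0.84 to 0.22 and an adjusted p of 0.426, and -0.47 on VNP2, with an interval of -1.0 to 0.060 and an adjusted p of 0.226, both from edgeR. The value on VN ranged from -0.50 without VN replicate 3 to -0.18 without VN replicate 1. The gene carried 34 to 51 estimated counts per library. The value of 50.1 in VN replicate 3 included a share from PDGFA-205 and PDGFA-206, which have no annotated coding sequence. PDGFA-203 alone gave 37.6 there, also after seeing the data. The log2 fold change of PDGFA on VN was then -0.47, with an adjusted p of 0.155 from edgeR.

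PDGFA makes a long and a short protein, and the long one ends in a basic stretch known to hold it near the cell surface. The ends of both coding sequences are shown because they carry that difference. Capitals mark the bases private to each model, the stop codon included, at chr7:500444-500499 for the long PDGFA-201 and chr7:498564-498574 for the short PDGFA-203.
PDGFA-201: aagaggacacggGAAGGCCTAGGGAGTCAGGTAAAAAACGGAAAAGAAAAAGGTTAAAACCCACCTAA
PDGFA-203: aagaggacacggATGTGAGGTGA

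PDGFA-201, with 211 residues, was listed at 0 in all 8 libraries, whereas PDGFA-203, with 196 residues, held 317.5 counts in all. A count of 0 allows a share of up to 0.945% over all libraries and of 5.88 to 8.82% per library. These limits cover counting error only and treat each count as able to tell the models apart, although most bases are shared. With every value at 0, no test of the share across substrates could be computed.

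PDGFRA, the receptor that marks OPCs, was highest on VNP2. It lies at chr4:54229097-54298247 on the plus strand. Normalized counts were 504 and 524 on Matrigel, with 577, 571 and 605 on VN and 643, 651 and 641 on VNP2. On this scale the groups did not overlap in any pair, and VN lay between Matrigel and VNP2.

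PDGFRA was 1.26-fold higher on VNP2 than on Matrigel (log2 fold change 0.33, SE 0.0648, adjusted p = 0.00592, edgeR). On VN against Matrigel the log2 difference was 0.19, with a 95% interval of 0.041 to 0.33 and an adjusted p of 0.0831, and on VNP2 against VN it was 0.14, with an interval of 0.016 to 0.27 and an adjusted p of 0.198, both from edgeR. Libraries that do not overlap were common, at 44.4% of all genes for VN against Matrigel, 48.1% for VNP2 against Matrigel and 23.6% for VNP2 against VN. Without Matrigel replicate 2 the call on VNP2 was lost, at a log2 fold change of 0.31 and an adjusted p of 0.0575 from edgeR.

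Of 6 other OPC markers tested, 3 were called higher on VN, where PDGFRA was not, and 5 on VNP2 against Matrigel, beside 5.66% and 7.44% of all genes, and none was called lower. Their median log2 fold changes were 0.27 and 0.37. Neuron markers were higher too, with 4 of 7 called on VN and 5 on VNP2, none lower, and medians of 0.50 and 0.72. OLIG1, an OPC transcription factor, had normalized counts of 1524 ± 19.8 on Matrigel, 1871 ± 101 on VN and 2020 ± 78.8 on VNP2. NKX2-2, another, had 598 ± 25.0, 632 ± 9.96 and 759 ± 29.2. PDGFRA also occurs in mesenchymal cells, whose 12 markers were mixed, with 7 called on VN, of which 5 rose and 2 fell, and 10 called on VNP2, of which 8 rose and 2 fell. The part of any of these cell classes in the PDGFRA values was not tested.

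The full model PDGFRA-201, with 1089 residues, took 97.5 to 99.5% of the counts of PDGFRA in each library. With PDGFRA-201 alone, again after seeing the data, normalized counts were 490 and 531 on Matrigel, with 536, 592 and 627 on VN and 611, 623 and 638 on VNP2. VN then overlapped VNP2, and VNP2 against Matrigel was still called, at 0.29 on the log2 scale and an adjusted p of 0.0344 from edgeR. The read-through model AC058822.1 shares 1533 exon bases with the gene on the same strand and was listed at 0 in all 8 libraries.

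PDGFRB, the receptor for PDGF-B and PDGF-D, was lowest on VN. It lies at chr5:150113837-150155872 on the minus strand. Normalized counts were 884 and 715 on Matrigel, with 635, 644 and 682 on VN and 859, 801 and 928 on VNP2. Every VN library was below every library of the other substrates, and Matrigel overlapped VNP2.

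PDGFRB was 1.32-fold higher on VNP2 than on VN (log2 fold change 0.40, SE 0.0857, adjusted p = 0.0234, edgeR). The log2 difference of VN from Matrigel was -0.29, with a 95% interval of -0.50 to -0.072 and an adjusted p of 0.0726, and that of VNP2 from Matrigel was 0.12, with an interval of -0.096 to 0.33 and an adjusted p of 0.479, both from edgeR. The call between VNP2 and VN was kept without VN replicate 1, at an adjusted p of 0.0387 from edgeR. It was lost without VN replicate 2, VN replicate 3, VNP2 replicate 1 or VNP2 replicate 3, at log2 fold changes of 0.34 to 0.43 and adjusted p-values of 0.0531 to 0.0956 from edgeR.

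The full model PDGFRB-201, with 1106 residues, took 94.1 to 98.3% of the counts of PDGFRB but 61.9 to 86.6% of its TPM, the rest going to other models of the gene. With PDGFRB-201 alone, again after seeing the data, normalized counts were 702 and 786 on Matrigel, with 607, 716 and 632 on VN and 781, 808 and 864 on VNP2. The higher of the Matrigel libraries was then replicate 3 and not replicate 2, and VN overlapped Matrigel. VNP2 against VN was still called, at 0.33 on the log2 scale and an adjusted p of 0.0388 from edgeR.

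Pericytes and smooth muscle are the best known cells with PDGFRβ, and 3 of their 7 tested markers were called lower on VN and VNP2 alike. Over all genes, 9.6% were called lower on VN and 9.13% on VNP2. RGS5, ABCC9, KCNJ8 and ANPEP were not called against Matrigel, and the list medians were -0.28 and -0.23 on the log2 scale. No marker of the list was called on VNP2 against VN, where PDGFRB was, beside 5.1% of all genes. The list median there was 0.13. TAGLN, an actin-binding protein of smooth muscle, had normalized counts of 14125 ± 450 on Matrigel, 3253 ± 132 on VN and 2884 ± 432 on VNP2. NOTCH3 and ACTA2 were also called lower in both comparisons with Matrigel, MYH11 held 18.0 counts in all, and the summed TPM of the list was 622 to 652 on Matrigel, against 228 to 243 on VN and 209 to 241 on VNP2. The part of such cells in the PDGFRB values was not tested.

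The balance of the receptors was tested as 1 value per library, the share of PDGFRA in the summed TPM of both. It was 32.7 and 38.4% on Matrigel, with 43.6, 43.0 and 43.0% on VN and 38.9, 40.9 and 37.0% on VNP2. In TPM all VN libraries were above all others, and Matrigel overlapped VNP2. The share differed across substrates with p = 0.0143 in an exact permutation test over the samples, in which 8 of 560 assignments gave as large a difference. The p rose to between 0.0571 and 0.0857 in the exact permutation test without Matrigel replicate 2, without any 1 of the VN libraries or without VNP2 replicate 1. By estimated counts the share was 40.7 and 39.9% on Matrigel, with 45.7, 45.4 and 49.8% on VN and 42.5, 43.2 and 41.3% on VNP2 (p = 0.0107, exact permutation test). In these values Matrigel and VNP2 did not overlap. With the top transcript of each receptor, chosen after seeing the data, they did not overlap either (p = 0.00714, exact permutation test).

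The summed TPM of both receptors was 10.6 ± 0.873 on Matrigel, 10.5 ± 0.481 on VN and 12.7 ± 0.567 on VNP2. Every VNP2 library, at 12.2 to 13.3 TPM, was above all other libraries, which reached 11.2 TPM.

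Beyond the 6 genes, 79 of 82 genes in 7 lists around the pathway were tested. The lists were drawn up with earlier results of these data known. On VN against Matrigel 24 were called, 5 higher and 19 lower, which is 30.4% of the lists. On VNP2 against Matrigel 26 were called, 7 higher and 19 lower, or 32.9%, and on VNP2 against VN 6 were called, 4 higher and 2 lower, or 7.59%. The backgrounds are 15.3, 16.6 and 5.1% of all genes, also for each single list below. The median log2 fold change of the 79 genes was -0.072, -0.057 and 0.014.

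**Figure D5:**
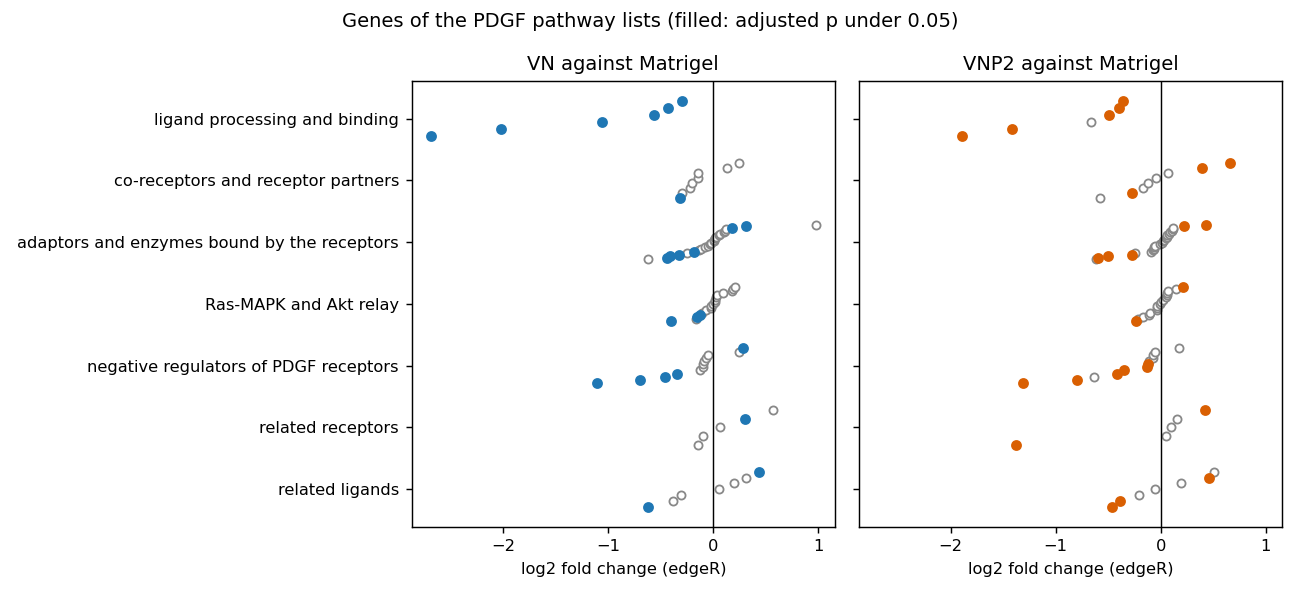
Log2 fold changes of the genes of 7 pathway lists on VN and on VNP2 against Matrigel, a point per gene, filled where the adjusted p was under 0.05. All 6 tested genes of ligand processing and binding lie below 0 in both panels, while the relay and adaptor genes gather near 0.

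Genes that process or bind PDGF ligands moved furthest. All 6 tested were called lower on VN and 5 of 6 on VNP2 against Matrigel, with list medians of -0.82 and -0.58 on the log2 scale. SPARC and THBS1, matrix proteins that bind PDGF-B, fell by 0.43 and 1.06 on VN and by 0.49 and 1.42 on VNP2 on the log2 scale. FURIN, the protease that processes PDGF-A and PDGF-B, fell by 0.30 on VN and 0.36 on VNP2.

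PLAT, tissue plasminogen activator, had normalized counts of 485 and 530 on Matrigel, with 340, 315 and 373 on VN and 374, 415 and 365 on VNP2. PLAU, urokinase, had 707 and 739 on Matrigel, with 114, 112 and 110 on VN and 243, 183 and 157 on VNP2. Both Matrigel libraries were above all others for both genes, and PLAU was higher in every VNP2 library than in every VN library.

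PLAU, whose product activates latent PDGF-D, was 6.46-fold lower on VN (log2 fold change -2.69, SE 0.148, adjusted p = 1.52e-06, edgeR) and 3.72-fold lower on VNP2 (-1.90, SE 0.142, adjusted p = 8.60e-06, edgeR). It was 1.73-fold higher on VNP2 than on VN, with an adjusted p of 0.0114 from edgeR. PLAT, whose product activates latent PDGF-C, was 1.48-fold lower on VN (log2 fold change -0.57, SE 0.0968, adjusted p = 0.00342, edgeR) and 1.32-fold lower on VNP2 (-0.40, SE 0.0959, adjusted p = 0.0170, edgeR). PDGFD was thus higher off Matrigel while PLAU was lower, and PDGFC and PLAT were both lower. THBS1 was lower on VNP2 than on VN by 0.35, whereas A2M, the plasma protease inhibitor that binds PDGF, was higher by 1.35 on the log2 scale.

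Among 8 co-receptors and partners, ITGAV, the αv chain of integrins that bind vitronectin and associate with PDGFRβ, was called lower on VN (-0.32) and on VNP2 (-0.28) against Matrigel. NRP1, a neuropilin, had a normalized count of 3001 ± 25.4 on Matrigel, against 3282 ± 92.0 on VN and 3933 ± 218 on VNP2. It was called higher on VNP2 against both others. CSPG4, the NG2 proteoglycan of OPCs and pericytes, had 134 ± 20.2, 158 ± 10.1 and 212 ± 15.2 and was called higher on VNP2 against Matrigel. LRP1, S1PR1, the NHERF genes and ITGB3 were called in no comparison.

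Of 24 adaptors and enzymes that bind the receptors, 6 were called on VN, of which 2 rose and 4 fell. On VNP2 5 were called, of which 2 rose and 3 fell. These counts stand beside 15.3% and 16.6% of all genes. PIK3R1, the main PI3K regulatory subunit, rose by 0.31 and 0.43 on the log2 scale. STAT3 and the Src-family kinase YES1 fell by 0.42 and 0.33 on VN and by 0.51 and 0.28 on VNP2. PIK3R3, another PI3K subunit, rose by 0.18 on VN. GRB10, an adaptor, was higher on VNP2 by 0.22 against Matrigel and by 0.20 against VN. The list medians were -0.0072 and 0.012, close to those of all genes.

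The Ras-MAPK and Akt relay moved little. Of 17 genes, AKT1, MAP2K2 and HRAS were called lower on VN, by 0.13 to 0.40 on the log2 scale. On VNP2, BRAF was called higher (0.21) and NRAS lower (-0.24). Over all genes, 15.3% were called on VN and 16.6% on VNP2. No relay gene was called between VNP2 and VN.

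Among 12 negative regulators, 5 were called on VN, of which 4 fell, and 6 on VNP2 against Matrigel, all of which fell. Over all genes, 15.3% and 16.6% were called, with 9.6% and 9.13% lower. The normalized counts of SOCS3, an inhibitor of cytokine signalling, were 1239 ± 29.7 on Matrigel, against 575 ± 22.9 on VN and 500 ± 3.44 on VNP2. The phosphatase DUSP3 and the receptor inhibitor ERRFI1 fell by 0.35 and 0.46 on VN and by 0.35 and 0.42 on VNP2. CBLB, a ubiquitin ligase for receptor kinases, rose by 0.28 on VN, and its relative CBL and the phosphatase PTPN1 each fell by 0.13 on VNP2.

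Relatives of the family moved in both directions. KIT, a receptor kinase of the same class as the PDGF receptors, rose by 0.31 on VN and 0.42 on VNP2, and its ligand KITLG rose by 0.43 and 0.45. CSF1 fell by 0.63 and 0.47, and VEGFA, a ligand with the same cystine knot fold as PDGF, fell by 0.39 on VNP2. FLT1, a VEGF receptor, had a normalized count of 56.3 ± 1.66 on Matrigel, against 83.9 ± 22.9 on VN and 21.5 ± 5.30 on VNP2. It was called lower on VNP2 against both others.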

How the data were processed

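The authors trimmed the reads with Trim Galore and ran Salmon on GENCODE v32 transcripts (GRCh38.p13). The deposited files hold, per transcript, an estimated count, which need not be whole and is not normalized, an effective length, and the TPM as Salmon gave it. The authors' gene table holds a signal, counts normalized in DESeq2 1.27.12. It served as a check and in 1 alternative. Between 98.8 and 98.9% of the estimated counts, in 205225 of 226608 transcripts, were matched by identifier to GENCODE v29, the annotation used here for coordinates and sequences. Transcripts without a match were left out.

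Counts were summed per gene, rounded and given offsets for average transcript length. Genes passing filterByExpr (minimum count 10, minimum total 15) entered 1 quasi-likelihood fit in edgeR 4.0.16 (R 4.3.3, TMM, all 8 libraries, no block, common dispersion 0.00370). Tests were two-sided, p-values were adjusted by Benjamini-Hochberg over the 18201 genes, and calls were made at an adjusted p under 0.05. Sampling limits the precision of low genes such as PDGFA. The receptor share was tested with an exact permutation test over samples, one-sided on the F statistic. TPM gave levels between genes. The fit was tested on simulated data.

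The members and gene lists were chosen with earlier results of these data known. All 6 members were named. In each list and comparison the called genes were named, or the 4 with the highest mean count where more were called. Marker genes were named where they define a cell type. The genes most like each member were the 3 with the highest Pearson r of log2 CPM (prior count 2) among genes whose normalized counts averaged at least 100. Those of PDGFRB are not reported here. Alternatives were DESeq2 1.42.0, RLE normalization, no length offsets, no filter, a mean count of at least 50, a replicate block, only the compared libraries, limma 3.58.1 on the authors' table with a pseudocount of 1, read-through counts added to PDGFRA, and each library left out. Use of only the transcript with the most counts was added after seeing the data.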

Additional observations from a re-analysis of the deposited data

How the results depend on the processing

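PDGFB, PDGFC and PDGFD kept their direction and their call against Matrigel under all 18 alternatives. Their log2 fold changes ranged from -2.37 to -1.89, from -0.51 to -0.44 and from 0.66 to 0.83 on VN, and from -2.12 to -1.63, from -0.48 to -0.39 and from 0.61 to 0.78 on VNP2. Adding the read-through counts changed nothing because they were 0, and PDGFA fell below a mean count of 50. The cause of the changes below was not tested beyond their construction.

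With each library left out in turn, the genes called ranged from 1188 to 3899 for VN against Matrigel (1226 without Matrigel replicate 2, 1188 without replicate 3), from 1609 to 3608 for VNP2 against Matrigel (1637 and 1609), from 1879 to 4975 for the change across substrates (1910 and 1879) and from 547 to 1996 for VNP2 against VN (1996 without VN replicate 1), where the members called ranged from 0 to 1.

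PDGFRB on VN against Matrigel was called without a filter (-0.29, adjusted p = 0.0409, edgeR) and without Matrigel replicate 3 (range -0.43 to -0.12). On VNP2 against Matrigel, PDGFRA ranged from 0.31 to 0.36 with a library left out and from 0.25, without length offsets, to 0.36 over all alternatives, and PDGFRB from -0.034, without Matrigel replicate 3, to 0.28. On VNP2 against VN, PDGFRB ranged from 0.34 to 0.45 with a library left out and from 0.33 to 0.45 over all alternatives. PDGFA ranged from -0.29 to 0.025, the last without VN replicate 3. PDGFC ranged from -0.018 to 0.070, below 0 without VN replicate 1 (-0.0047), VNP2 replicate 1 (-0.018) or VNP2 replicate 2 (-0.013). PDGFB turned to -0.0058 without length offsets and to -0.16 with 1 transcript only. None of these PDGFA, PDGFC and PDGFB values on VNP2 against VN was called.

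The adjusted p of PDGFRA across substrates (edgeR) was 0.0837 without length offsets, 0.0691 with 1 transcript only, and 0.0112 to 0.0855 with a library left out, lost without either Matrigel library. That of PDGFRB was 0.0103 to 0.0636, lost without VN replicate 2 or VNP2 replicate 3.

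Pairing by replicate number was not evident: same-numbered libraries had correlations of -0.11 to 0.14 in 7 pairs, with 1 over 0.1. These correlations are between deviations from the mean of a substrate. With so few libraries per mean the deviations depend on each other, so the check cannot exclude pairing. The replicate block moved the genes called to 3389, 3170 and 1146 in the 3 comparisons and changed no call of a member. Permuted within the block, the PDGFRA share, 39.7% over all libraries, had p = 0.0833 by the exact permutation test. Its mean was 39.1 to 40.7% with a library left out.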

Other observations

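The genes whose log2 CPM was most like that of a member over the 8 libraries are given as a description, since libraries of 1 substrate share their level and 12995 or 12996 genes were compared. For PDGFB they were CXCL14, CAP1 and SLC20A2, with Pearson r of 0.996, 0.994 and 0.994. CXCL14, a chemokine, had mean normalized counts of 394 on Matrigel, 123 on VN and 142 on VNP2. For PDGFD they were FREM2, DPYSL2 and EPHA7, with r of 0.998, 0.994 and 0.992, and EPHA7, an ephrin receptor, had 671, 1079 and 1009. For PDGFC they were CCDC86, HSPA4 and PTPN14, with r of 0.995, 0.992 and 0.991, and PTPN14, a phosphatase, had 1772, 1246 and 1267.

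For PDGFRA the genes most alike were POU2F2, SYT4 and P2RX3, with r of 0.993, 0.991 and 0.991. SYT4, a synaptotagmin, had mean normalized counts of 691 on Matrigel, 927 on VN and 1237 on VNP2. For PDGFA they were AKAP17A, IFNGR1 and GOLGA5, with r of 0.985, 0.974 and 0.959.

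Among neuron markers, DCX, a microtubule protein of young neurons, had a normalized count of 8545 ± 198 on Matrigel, against 12266 ± 314 on VN and 14079 ± 640 on VNP2. Of 6 radial glia and progenitor markers tested, 3 were called on VN, of which 2 fell, and 4 on VNP2, of which 2 fell. Of 5 neural crest markers tested, 1 was called higher on VN (SOX9) and 2 on VNP2 (SOX9 and TFAP2A). Of 5 pluripotency markers, LIN28A was called lower on VN, and 1 was called higher and 3 lower on VNP2. Over all genes, 5.66% were called higher and 9.6% lower on VN against Matrigel. On VNP2 against Matrigel 7.44% were called higher and 9.13% lower.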
